A study of Mus musculus with 9 samples.

Results

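Of the 35397 genes in a table of retinal gene expression, 9 genes of peptide signalling are described here in retinas of db/db mice against retinas of wild-type mice. Of these 9 genes, 6 encode neuropeptide precursors (Tac1, Sst, Vip, Npy, Penk and Cck) and 3 encode peptide receptors (Tacr1, Tacr3 and Sstr2). Their rows were found by matching each Ensembl identifier to its mouse symbol. The set had been chosen from measured values of this same contrast, so the differences of its members are given as a description with no test. All 9 genes reached the mean of 1 FPKM over the libraries that was asked of a gene before testing, as did 14588 genes in all.

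The study set out to describe gene expression in the retinas of both genotypes. The db/db group held 4 libraries, numbered 1, 3, 4 and 5 in their titles, and the wild-type group held 5 libraries, numbered 1 to 5. Mice of the db/db genotype lack the long signalling form of the leptin receptor throughout the body and become obese and diabetic, so the genotype is not a change limited to the retina. Total RNA came from whole retina. The labels give no age, sex, strain background or treatment, and nothing in them ties a library to an animal of its own. The p-values below therefore treat the libraries as independent, which the labels do not establish, and may not speak for separate mice.

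Neuropeptides are short peptides that are cut out of larger precursor proteins, stored in dense-core granules and released to act on G protein-coupled receptors of nearby cells. In the mammalian retina they are found mainly in amacrine cells, the inhibitory interneurons of the inner retina, each peptide in a sparse population and usually beside GABA or glycine. Because these cells are few, a precursor transcript in whole retina comes from a small part of the tissue, and in bulk RNA fewer cells of a type and less RNA per cell cannot be told apart.

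Stretches of promoter are shown first for 5 of the members that hold, in full or in part, the one sequence feature looked for across the set. This was the cyclic AMP response element bound by the transcription factor CREB. The sequences are from RefSeq, build GRCm38.p6, in which 8 of the 9 genes had an entry running from 250 bases before to 50 bases after the start of the gene. Penk had none. Capitals mark the full element TGACGTCA or, where only that was found, its first 5 letters TGACG, which read CGTCA on the other strand. Each line runs 5′ to 3′ on the strand of the gene.
Sst (chr16:23890863-23890914, minus strand): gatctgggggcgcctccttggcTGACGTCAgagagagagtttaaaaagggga
Sstr2 (chr11:113619247-113619298, plus strand): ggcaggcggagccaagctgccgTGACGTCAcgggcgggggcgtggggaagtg
Vip (chr10:5639117-5639168, plus strand): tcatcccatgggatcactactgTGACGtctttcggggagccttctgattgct
Tac1 (chr6:7554996-7555047, plus strand): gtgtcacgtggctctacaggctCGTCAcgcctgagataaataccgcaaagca
Tacr3 (chr3:134828927-134828978, plus strand): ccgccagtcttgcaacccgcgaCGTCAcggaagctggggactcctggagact

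The somatostatin precursor gene Sst and the somatostatin receptor gene Sstr2 both held the full element, its first base at -48 from the start in Sst and at -58 in Sstr2. Of the 32851 promoters of the table, 1.79% held the full element on either strand. The first 5 letters alone, without the full element, were found in the promoters of Tac1, Tacr1, Tacr3, Vip and Cck. Tac1 held them at -197 and at -43, of which only the match at -43 is printed, and the matches of Tacr1 and Cck are not printed. Npy had no match in its window. Among all promoters 20.8% held those 5 letters on either strand, a share that includes every full element, since TGACGTCA holds them once on each strand. Positions count from the RefSeq start, which for Sst, Tac1 and Tacr1 lies inside the gene as GENCODE gives it. The printed stretches of Sst and Tac1 therefore overlap the GENCODE gene. A match of letters is a description of the window and not of a bound site.

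Expression was deposited as FPKM, fragment counts divided by exon length and by library depth, a level per unit of transcript length. The depth recovered from the values lay between 36.6 M reads in db/db 5 and 47.9 M reads in wild type 1. Library db/db 1 stood apart from the others. Its FPKM values summed to 311179, against 252832 to 268139 in the other 8 libraries, and limma gave it an array weight of 0.065 against 0.811 to 2.52 elsewhere. The differences of the members are therefore given with and without it. The leptin receptor gene Lepr was close to 0 in both groups, at 0.0504 ± 0.0204 FPKM in db/db (SD, n = 4) and 0.0387 ± 0.00752 FPKM in wild type (SD, n = 5), and at that level it does not check the genotype labels. Genes of all 12 retinal and neighbouring cell type lists were detected. With all 9 libraries none of their 86 tested markers passed limma's test, which 0.500% of all tested genes passed, or limma-voom. At an unadjusted p under 0.05 there were 18, a level that 19.3% of all tested genes reached. Without db/db 1 limma called 1 amacrine, 1 Muller glia and 3 vessel markers higher in db/db. It called 3 amacrine, 2 Muller glia and 1 each of the cone bipolar, rod, microglia and vessel markers lower. Of all tested genes 10.6% were then called.

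Penk stood highest of the 9 genes in both groups. In db/db libraries the order of mean levels in FPKM was Penk, Npy, Cck, Sst, Tacr3, Tac1, Vip, Sstr2 and Tacr1. The ranges of neighbours in that order were separate only between Penk and Npy, between Npy and Cck, and between Tac1 and Vip. In wild-type libraries the order was Penk, Npy, Tacr3, Sst, Cck, Tac1, Vip, Tacr1 and Sstr2. Here neighbours were separate only between Npy and Tacr3 and between Vip and Tacr1, and Penk exceeded Npy in 4 of the 5 libraries. The receptor Tacr3 thus came after Cck and Sst in db/db and before them in wild type, its wild-type levels overlapping theirs. Among the 14588 tested genes, whose median level was 6.49 FPKM, the mean of Penk lay at percentile 94.7, that of Npy at 80.7 and those of the other members between 18.9 and 48.6.

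**Figure D1:**
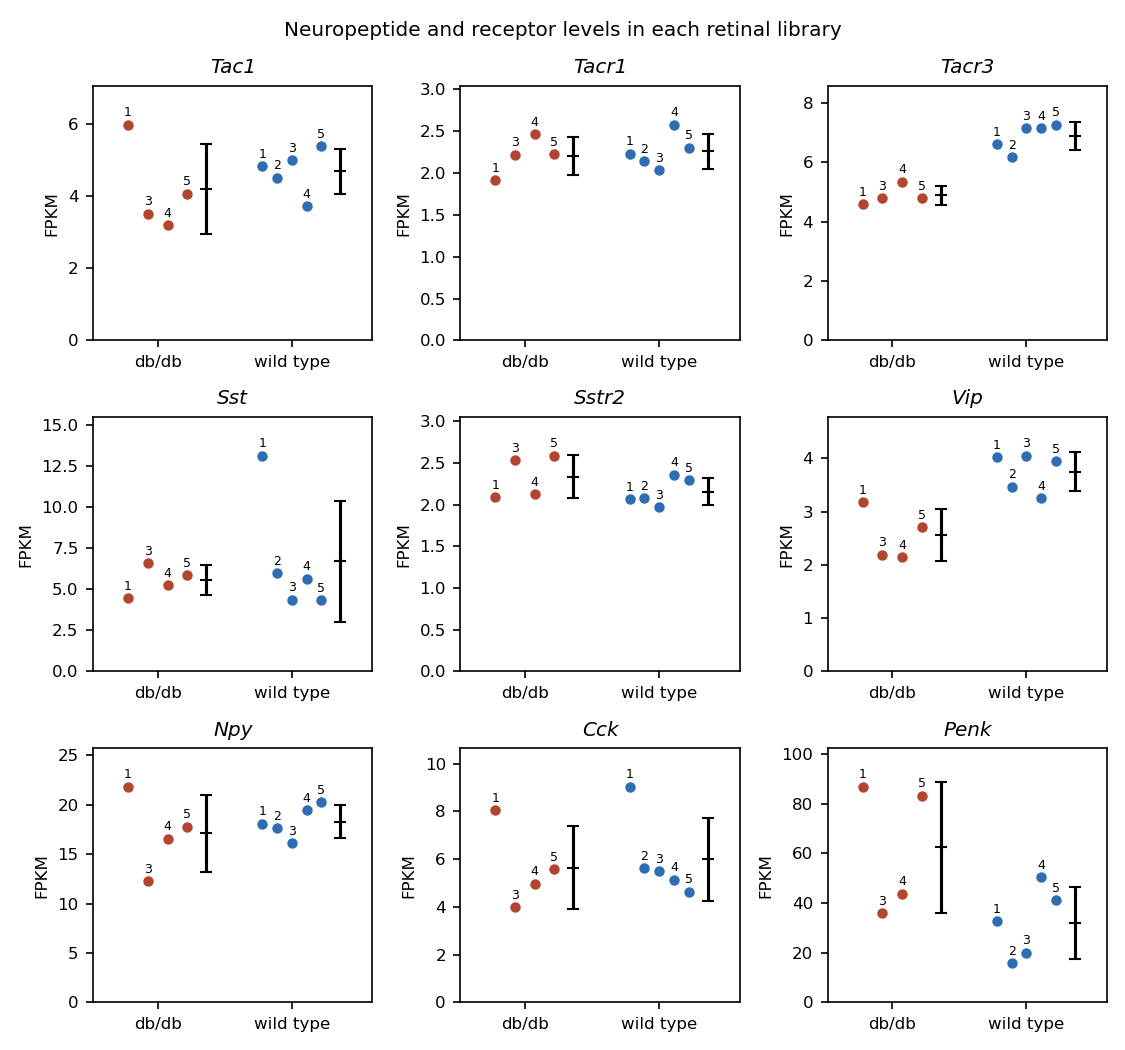
Level of each of the 9 genes in FPKM (y axis, linear, from 0), with 1 point per library, its number above it, the db/db libraries left and the wild-type libraries right, and bars giving the mean ± SD of each group (n = 4 and n = 5). Only Tacr3 and Vip show groups that do not overlap, both lower in db/db, while Penk spreads from 15.7 to 86.8 FPKM.

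Tac1 encodes the precursor of substance P and neurokinin A. It stood at 5.99, 3.52, 3.20 and 4.08 FPKM in db/db 1, 3, 4 and 5, against 4.83, 4.52, 5.005, 3.72 and 5.40 FPKM in wild type 1 to 5. The library db/db 1 was the highest of all 9 and the other 3 db/db libraries were below the wild-type median, so the groups overlapped. The means were 4.20 ± 1.25 FPKM in db/db (SD, n = 4) and 4.70 ± 0.631 FPKM in wild type (SD, n = 5). The difference, db/db minus wild type on the log2(FPKM + 1) scale used throughout, was -0.15 with an SE of 0.15, and -0.31 with an SE of 0.10 without db/db 1. Tac1 lies on chromosome 6 from 7554879 to 7565834, plus strand, in mm10, the build of all gene positions given here.

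Tacr1, the receptor that prefers substance P, had 1.91, 2.22, 2.46 and 2.22 FPKM in db/db 1, 3, 4 and 5, against 2.23, 2.14, 2.03, 2.57 and 2.30 FPKM in wild type 1 to 5. The groups overlapped over most of their range. Their means were 2.20 ± 0.225 FPKM in db/db (SD, n = 4) and 2.25 ± 0.204 FPKM in wild type (SD, n = 5), with a log2 difference of -0.02 (SE 0.07). Without db/db 1 the difference was 0.02 (SE 0.07). The sign of so small a difference turned with the setting, which gave -0.06 to 0.04 over 19 other settings. The gene lies on chromosome 6 from 82402334 to 82560104, plus strand.

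Tacr3, the receptor that prefers neurokinin B and that is known from bipolar and amacrine cells of the rodent retina, was lower in every db/db library than in any wild-type library. It stood at 4.59, 4.796, 5.35 and 4.79 FPKM in db/db 1, 3, 4 and 5, against 6.62, 6.17, 7.16, 7.16 and 7.26 FPKM in wild type 1 to 5. The highest db/db value, in db/db 4, was below the lowest wild-type value, in wild type 2. The mean was 4.88 ± 0.327 FPKM in db/db (SD, n = 4) and 6.88 ± 0.469 FPKM in wild type (SD, n = 5), a ratio of 0.7104. The log2 difference was -0.42 (SE 0.07), -0.40 (SE 0.06) without db/db 1, and between -0.49 and -0.32 over 20 other settings. Tacr3 also varied least among the 9 genes in both groups, with coefficients of variation of 6.69% in db/db and 6.82% in wild type. The reads behind each value, 660 to 1246 per library, come from a gene on chromosome 3 from 134829007 to 134934579, plus strand.

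The balance of both tachykinin receptors, taken within each library, separated the groups too. The ratio of Tacr3 to Tacr1, both per kilobase, was 2.40, 2.17, 2.18 and 2.16 in db/db 1, 3, 4 and 5, against 2.97, 2.88, 3.52, 2.78 and 3.16 in wild type 1 to 5. Its mean was 2.23 ± 0.119 in db/db (SD, n = 4) and 3.07 ± 0.291 in wild type (SD, n = 5). This ratio rests on the Tacr3 values that were used to choose the set, and it is given for its size within a library and not as further evidence.

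Vip, which encodes vasoactive intestinal peptide and marks a class of amacrine cells, was the other member whose groups did not overlap. It had 3.17, 2.19, 2.14 and 2.71 FPKM in db/db 1, 3, 4 and 5, against 4.02, 3.46, 4.05, 3.25 and 3.95 FPKM in wild type 1 to 5. The gap between the groups was narrow, from 3.17 FPKM in db/db 1 to 3.25 FPKM in wild type 4. The means were 2.55 ± 0.486 FPKM in db/db (SD, n = 4) and 3.75 ± 0.365 FPKM in wild type (SD, n = 5), a ratio of 0.682. The log2 difference was -0.42 (SE 0.10), -0.50 (SE 0.08) without db/db 1, and between -0.57 and -0.25 over 19 other settings. The smallest size, -0.25, came from a correction for GC content. The GC content of the Vip transcript is 38.7%, the lowest of the 9, and the deviation of genes from their wild-type mean was correlated with GC content in the db/db libraries, with Spearman's rho over genes of 0.21, 0.24, 0.39 and 0.58 in db/db 1, 3, 4 and 5, against -0.21 to 0.18 in the wild-type libraries. That mean is formed from the wild-type libraries themselves, so the rho values of the groups are not like measures. The part of GC content in the Vip difference was not tested. The gene lies on chromosome 10 from 5639218 to 5647617, plus strand.

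Penk encodes proenkephalin, the precursor of the enkephalins, which act on opioid receptors. Its highest library had 5.52 times the level of its lowest, the widest span of the 9 genes. It stood at 86.8, 36.0, 43.8 and 83.3 FPKM in db/db 1, 3, 4 and 5, against 32.8, 15.7, 20.1, 50.3 and 41.3 FPKM in wild type 1 to 5. Both db/db 1 and db/db 5 were above every wild-type library, while db/db 3 and db/db 4 lay inside the wild-type range, above its median. The means were 62.5 ± 26.3 FPKM in db/db (SD, n = 4) and 32.1 ± 14.4 FPKM in wild type (SD, n = 5), a ratio of 1.95. The log2 difference of 0.96 had an SE of 0.38, was 0.77 (SE 0.39) without db/db 1, and lay between 0.73 and 1.19 over 20 other settings. Penk's SD within groups was larger than that of 99.6% of the 500 genes nearest to it in mean level. It lies on chromosome 4 from 4133531 to 4138819, minus strand, and the antisense gene A830012C17Rik, whose exons overlap it, had a mean of 0.008 FPKM.

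Markers of the lens, a tissue next to the retina that can be carried over in dissection, varied between libraries along with Penk. The summed level of the 8 lens markers, of which 5 reached the filter, was 120.1, 21.4, 2.21 and 255.9 FPKM in db/db 1, 3, 4 and 5, against 43.4, 6.58, 1.82, 63.8 and 122.5 FPKM in wild type 1 to 5. In both groups the 2 libraries with the most lens signal were also the 2 with the most Penk. The library db/db 4 had lens markers close to those of the lowest wild-type library, beside 43.8 FPKM of Penk. Lens marker Lim2 was under 0.1 FPKM on average. The 7 markers of the retinal pigment epithelium summed to 396.0, 185.9, 77.6 and 198.8 FPKM in db/db 1, 3, 4 and 5, against 186.4, 136.7, 130.7, 161.5 and 115.4 FPKM in wild type 1 to 5. The part of these neighbouring tissues in the Penk values was not tested.

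**Figure D2:**
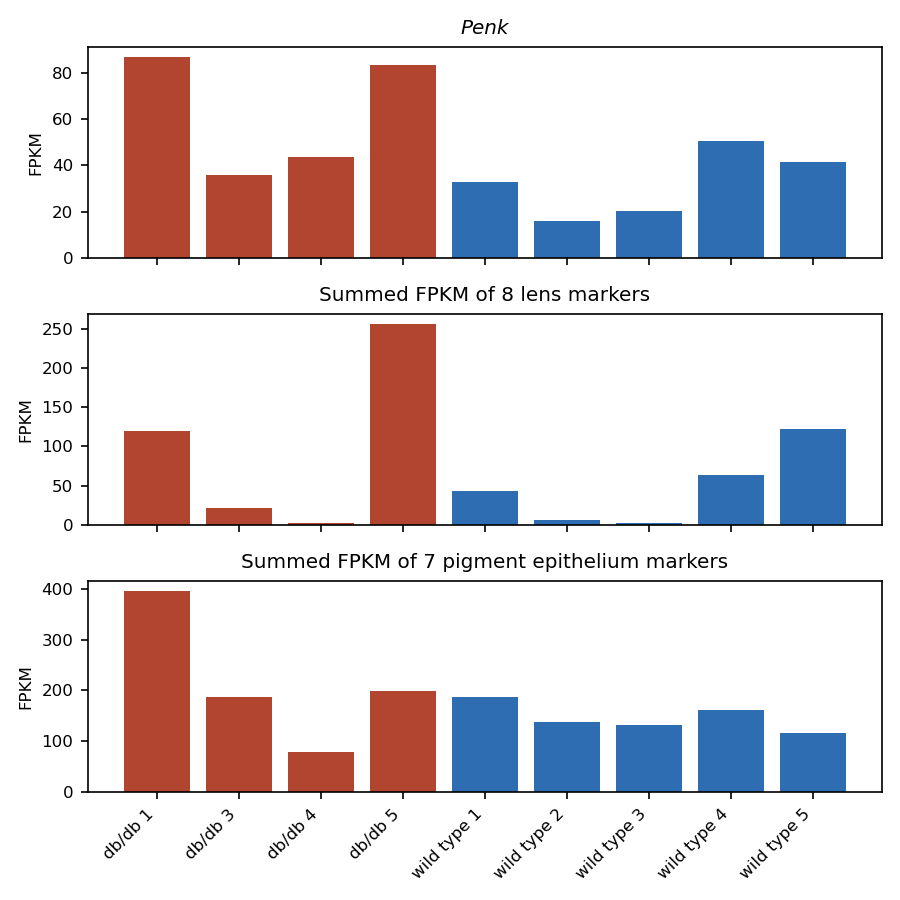
Penk (top), the summed level of 8 lens markers (middle) and the summed level of 7 retinal pigment epithelium markers (bottom), in FPKM on linear axes from 0, with 1 bar per library, db/db left and wild type right. The libraries db/db 1 and db/db 5 are high for Penk and for lens markers, while db/db 4 has 43.8 FPKM of Penk beside 2.21 FPKM of lens markers.

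Sst encodes somatostatin. It had 4.48, 6.61, 5.26 and 5.87 FPKM in db/db 1, 3, 4 and 5, against 13.1, 5.97, 4.38, 5.65 and 4.35 FPKM in wild type 1 to 5. The 4 db/db values all lay inside the wild-type range, and wild type 1 had more than every other library. The means were 5.55 ± 0.904 FPKM in db/db (SD, n = 4) and 6.70 ± 3.67 FPKM in wild type (SD, n = 5). The log2 difference of -0.14 (SE 0.26) depended on wild type 1, without which it was 0.11. Without db/db 1 it was -0.06 (SE 0.28). Sst lies on chromosome 16 from 23889573 to 23890958, minus strand, and as the gene with the fewest reads in any library it was counted from 143 to 453 reads.

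Its receptor gene Sstr2 had 2.09, 2.54, 2.13 and 2.59 FPKM in db/db 1, 3, 4 and 5, against 2.07, 2.08, 1.97, 2.36 and 2.29 FPKM in wild type 1 to 5. All 4 db/db values were above the wild-type median and the groups overlapped. Means of 2.34 ± 0.261 FPKM in db/db (SD, n = 4) and 2.16 ± 0.164 FPKM in wild type (SD, n = 5) gave a log2 difference of 0.08 (SE 0.07). Without db/db 1 it was 0.11 (SE 0.07). Sstr2 lies on chromosome 11 from 113619342 to 113626028, plus strand, within the span of Slc39a11 on the other strand, with no overlap of exons. With all libraries the log2 differences of Sst and Sstr2 were of opposite sign, each within 2 SE of 0. Without wild type 1 both were above 0, at 0.11 for Sst and 0.07 for Sstr2.

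Npy encodes neuropeptide Y, a peptide of amacrine cells. It had 21.8, 12.3, 16.6 and 17.8 FPKM in db/db 1, 3, 4 and 5, against 18.1, 17.6, 16.1, 19.4 and 20.2 FPKM in wild type 1 to 5. The highest and the lowest of the 9 values were both in db/db libraries, so that the groups overlapped. The means were 17.1 ± 3.92 FPKM in db/db (SD, n = 4) and 18.3 ± 1.62 FPKM in wild type (SD, n = 5), with a log2 difference of -0.11 (SE 0.14), or -0.23 (SE 0.11) without db/db 1. Npy lies on chromosome 6 from 49822710 to 49829507, plus strand.

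Cck encodes cholecystokinin. It had 8.04, 3.995, 4.97 and 5.57 FPKM in db/db 1, 3, 4 and 5, against 9.03, 5.63, 5.51, 5.14 and 4.64 FPKM in wild type 1 to 5. In each group library 1 was the highest, and the remaining libraries of both groups lay between 3.995 and 5.63 FPKM. The means of 5.64 ± 1.73 FPKM in db/db (SD, n = 4) and 5.99 ± 1.74 FPKM in wild type (SD, n = 5) differed by -0.08 on the log2 scale (SE 0.20), by -0.24 (SE 0.17) without db/db 1 and by 0.06 without wild type 1. Cck lies on chromosome 9 from 121489824 to 121495694, minus strand.

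Across the set, 7 of the 9 log2 differences were below 0 and 2, those of Penk and Sstr2, were above it. Their median was -0.11, beside 0.003 over all 14588 tested genes, and -0.23 beside -0.017 without db/db 1. The sign was the same under all settings run for 5 members, Tac1, Tacr3, Sstr2, Vip and Penk. The groups did not overlap for 2 of 9 members, with or without db/db 1. Over all tested genes the groups did not overlap for 11.6%, and for 21.1% without db/db 1. The members were chosen from the same values, so nothing is read from the comparison of these shares.

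**Figure D3:**
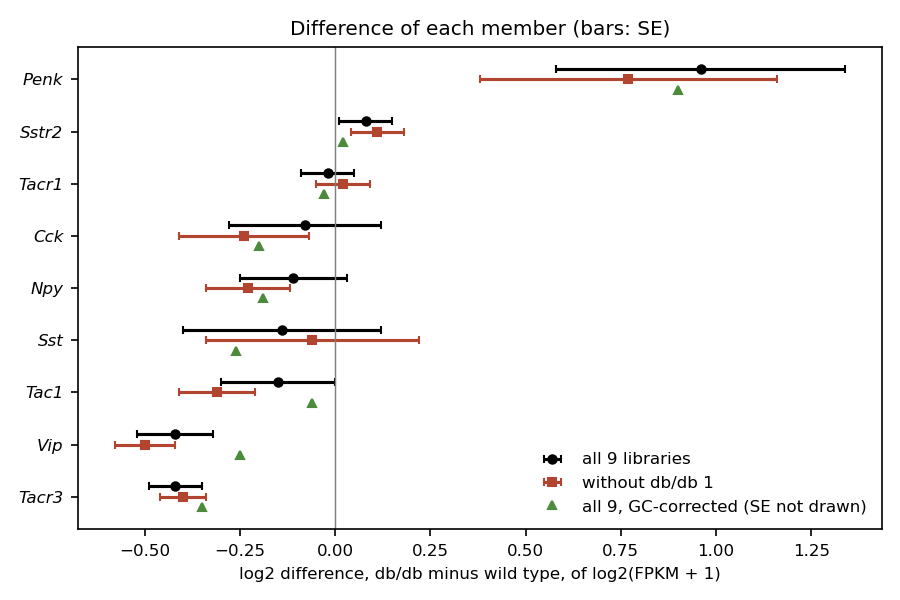
Log2 difference of each gene, db/db minus wild type, of log2(FPKM + 1) (x axis), with SE bars, for all 9 libraries (circles) and without db/db 1 (squares), and after GC correction (triangles, SE not drawn). Tacr3 and Vip lie left of 0 in all 3, at -0.42 each with all libraries, and Penk lies right of 0, at 0.96.

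The genes around the set were taken from 3 lists that hold no member: 54 other neuropeptide genes, 56 other peptide receptor genes, and 28 genes of peptide processing and secretory granules. Of these 138 genes 48 reached the filter. None of the 48 passed limma's test with Benjamini-Hochberg adjustment over all 14588 genes, in either direction, where 73 genes or 0.500% of all tested passed, 34 of them higher in db/db and 39 lower. At an unadjusted p under 0.05 there were 8 of 48, beside 2810 or 19.3% of all tested genes, and limma-voom on the recovered reads called 0. Leaving out any other single library left 3 to 8 genes higher in db/db and 1 to 5 lower. Without db/db 1 the test called 1540 genes, or 10.6% of all tested, and 6 of the 48, 2 higher and 4 lower in db/db.

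Of the 14 other neuropeptide genes tested, limma and limma-voom called 0 with all libraries, where 2 had an unadjusted p under 0.05 (19.3% of all tested genes did), and limma called 3 lower in db/db without db/db 1. They had a median log2 difference of -0.14 with all libraries and -0.17 without that one. Tac2 encodes neurokinin B, the preferred ligand of the receptor that Tacr3 encodes. It had 10.0, 7.08, 7.99 and 7.04 FPKM in db/db 1, 3, 4 and 5, against 11.4, 9.35, 10.7, 9.82 and 9.66 FPKM in wild type 1 to 5. Only db/db 1 reached into the wild-type range. The means were 8.03 ± 1.39 FPKM in db/db (SD, n = 4) and 10.2 ± 0.855 FPKM in wild type (SD, n = 5). The log2 difference was -0.32 (SE 0.10, limma adjusted p = 0.146) with all libraries and -0.42 (limma adjusted p = 0.0146) without db/db 1, with adjusted p-values between 0.0146 and 0.428 over the other settings. The ratio of Tac2 to Tacr3 within a library was 1.65 ± 0.350 in db/db (SD, n = 4) and 1.49 ± 0.155 in wild type (SD, n = 5). It was 2.18 in db/db 1 but 1.48, 1.49 and 1.47 in db/db 3, 4 and 5, against 1.33 to 1.725 in wild type. The ratios thus overlapped between the groups, and the higher db/db mean came from db/db 1. The Tacr3 values in this ratio were used to choose the set, so the ratio is not further evidence.

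Cartpt, the precursor of cocaine- and amphetamine-regulated transcript peptide, which marks a class of direction-selective retinal ganglion cells, depended on db/db 1 in the same way. It had 82.9, 39.1, 38.6 and 41.7 FPKM in db/db 1, 3, 4 and 5, against 60.1, 50.9, 56.6, 54.1 and 50.9 FPKM in wild type 1 to 5. The library db/db 1 was above all wild-type libraries and the other 3 db/db libraries were below them. The log2 difference was -0.18 (SE 0.21, limma adjusted p = 0.644) with all libraries and -0.44 (limma adjusted p = 0.0108) without db/db 1, with adjusted p-values between 0.00699 and 0.841 over the other settings. The summed level of the 10 retinal ganglion cell markers was 323.5 to 452.2 FPKM in db/db and 295.3 to 335.9 FPKM in wild type, and limma called 0 of 10 with or without db/db 1, with 1 at an unadjusted p under 0.05 with it and 2 without it, beside 19.3% of all tested genes with it and 30.1% without it. Agrp, the precursor of agouti-related peptide, had 4.66 ± 0.966 FPKM in db/db (SD, n = 4) and 5.93 ± 0.746 FPKM in wild type (SD, n = 5), with an adjusted p from limma of 0.249. Gal, the galanin precursor, and Vgf, a granule protein precursor, had limma adjusted p-values of 0.427 and 0.960.

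Of the 13 other peptide receptor genes tested, limma and limma-voom called 0 with all libraries, where 3 had an unadjusted p under 0.05, beside the same 19.3% of all tested genes. Without db/db 1 limma called Vipr2 alone, higher in db/db. Vipr2 encodes a receptor for vasoactive intestinal peptide and for the related peptide PACAP. It had 16.3, 20, 18.8 and 18.1 FPKM in db/db 1, 3, 4 and 5, against 15.3, 15.6, 16.4, 15.9 and 15.1 FPKM in wild type 1 to 5. The values of db/db 1 and wild type 3 overlapped. The means were 18.3 ± 1.54 FPKM in db/db (SD, n = 4) and 15.6 ± 0.509 FPKM in wild type (SD, n = 5), with a log2 difference of 0.21 (SE 0.07, limma adjusted p = 0.134), and 0.26 (limma adjusted p = 0.0156) without db/db 1. Over the other settings its adjusted p lay between 0.0156 and 0.443. The log2 differences of Vip and Vipr2 were thus of opposite sign. Their ratio within a library was 0.110 to 0.195 in db/db and 0.205 to 0.263 in wild type, with means of 0.142 ± 0.0394 in db/db (SD, n = 4) and 0.240 ± 0.0258 in wild type (SD, n = 5). The Vip values in this ratio were used to choose the set, so the ratio is not further evidence.

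The other receptors of the members' peptides were below the filter, with the exception of Cckbr. The other vasoactive intestinal peptide receptor, Vipr1, had 0.213 to 0.485 FPKM in db/db and 0.209 to 0.519 FPKM in wild type. Of the somatostatin receptors, Sstr1 had 0.170 to 0.614 FPKM in db/db and 0.450 to 0.735 FPKM in wild type, and Sstr3 had 0.596 to 0.817 FPKM in db/db and 0.474 to 0.856 FPKM in wild type. Sstr4 had 0.183 to 0.665 FPKM in db/db and 0.131 to 0.983 FPKM in wild type, and Sstr5 stayed under 0.1 FPKM, so that Sstr2 had the highest level of these receptors in each of the 9 libraries. The enkephalin receptors were close to 0, Oprd1 at 0.0136 to 0.0483 FPKM in db/db and 0 to 0.203 FPKM in wild type, and Oprm1 at up to 0.0136 FPKM in db/db and up to 0.0224 FPKM in wild type. Of the neuropeptide Y receptors, Npy1r had 0.521 to 0.741 FPKM in db/db and 0.470 to 1.03 FPKM in wild type. Npy2r had 0.0431 to 0.0731 FPKM in db/db and 0.0665 to 0.667 FPKM in wild type, where its next highest library had 0.110 FPKM. The highest wild-type value of Vipr1, Sstr1, Sstr3, Sstr4, Oprd1, Npy1r and Npy2r was in wild type 1, the library that was also highest for Sst and Cck, so no direction is read from these low levels. The remaining tachykinin receptor, Tacr2, had up to 0.108 FPKM in db/db and up to 0.0971 FPKM in wild type.

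Cckbr, a receptor of the peptide that Cck encodes, had 3.70 ± 0.618 FPKM in db/db (SD, n = 4) and 3.27 ± 0.193 FPKM in wild type (SD, n = 5), with a limma adjusted p of 0.453. Oprl1, the receptor of nociceptin, had 4.91 ± 0.473 FPKM in db/db (SD, n = 4) and 4.18 ± 0.380 FPKM in wild type (SD, n = 5), with a limma adjusted p of 0.229. Ramp3, a partner protein of the calcitonin receptor family, had 14.2 ± 5.07 FPKM in db/db (SD, n = 4) and 10.2 ± 0.9497 FPKM in wild type (SD, n = 5), with a limma adjusted p of 0.251. Npr2, the receptor of C-type natriuretic peptide, had a limma adjusted p of 0.604.

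Of the 21 tested genes of peptide processing and granules, limma and limma-voom called 0 with all libraries, where 3 had an unadjusted p under 0.05 beside 19.3% of all tested genes, and the median log2 difference was -0.09. Thop1, a peptidase that degrades neuropeptides in the cell, came closest. It had 10.3, 9.38, 9.22 and 9.51 FPKM in db/db 1, 3, 4 and 5, against 7.17, 6.53, 6.27, 8.51 and 6.86 FPKM in wild type 1 to 5, with no overlap between the groups. Its log2 difference was 0.40 (SE 0.08, limma adjusted p = 0.0675) with all libraries and 0.37 (limma adjusted p = 0.0276) without db/db 1, with adjusted p-values between 0.0269 and 0.428 over the other settings. After GC correction it was 0.25 (limma adjusted p = 0.196), and 0.26 (limma adjusted p = 0.07) when db/db 1 was also left out, so that the call without db/db 1 was lost. Pcsk2, the convertase that cuts many peptide precursors, had 4.47 ± 0.307 FPKM in db/db (SD, n = 4) and 5.28 ± 0.383 FPKM in wild type (SD, n = 5), a log2 difference of -0.20 (SE 0.07, limma adjusted p = 0.156), again with no overlap. The groups also did not overlap for Pam, which amidates peptides, and for Cadps, a protein that primes granules for release. These made 4 of 21, beside 11.6% of all tested genes. The most abundant genes of the list were Cpe, a carboxypeptidase that trims peptides, at 374.3 ± 74.2 FPKM in db/db (SD, n = 4) and 339.8 ± 19.9 FPKM in wild type (SD, n = 5), and the granule proteins Scg2 and Chgb, with limma adjusted p-values of 0.600, 0.485 and 0.859 for Cpe, Scg2 and Chgb.

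**Figure D4:**
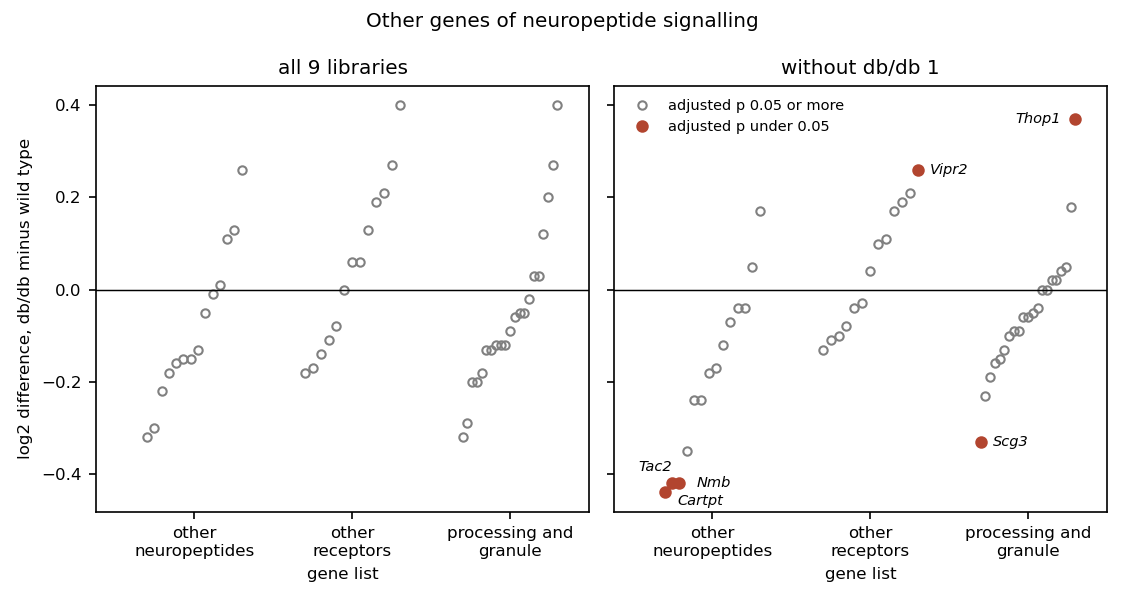
Log2 difference, db/db minus wild type (y axis), of the 14, 13 and 21 tested genes of the 3 lists (x axis, sorted within each list), with all 9 libraries (left) and without db/db 1 (right), filled where limma's adjusted p is under 0.05. No point is filled on the left, and Tac2, Nmb, Cartpt, Vipr2, Scg3 and Thop1 are filled on the right.

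Markers of the cells that could hold the members were summed beside them. The 16 amacrine cell markers summed to 438.7 to 492.9 FPKM in db/db and 430.0 to 448.9 FPKM in wild type, and limma called 0 of 16 with all libraries, where 6 had an unadjusted p under 0.05, beside 19.3% of all tested genes. Without db/db 1, 1 was higher and 3 were lower in db/db, beside 10.6% of all tested genes called in either direction. The 8 cone bipolar cell markers summed to 206.4 to 226.9 FPKM in db/db and 209.8 to 224.6 FPKM in wild type, and the 6 rod bipolar cell markers to 131.5 to 154.6 FPKM in db/db and 142.3 to 156.7 FPKM in wild type. The sums of all 3 lists overlapped between the groups. With all libraries the median log2 difference was -0.1 for the amacrine, -0.02 for the cone bipolar and -0.05 for the rod bipolar markers. The part of these cell types in the members' values was not tested.

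Whether members varied together between retinas of one group was tested on deviations from the group means. These deviations leave out the difference between the groups, from which the set was chosen. Whether the spread within groups also played a part in that choice is not known. Pearson's r was computed over the 9 libraries for all 36 pairs, with exact two-sided p-values from the 2880 permutations of libraries within groups. After Benjamini-Hochberg adjustment 0 of 36 pairs had a p under 0.05, and 4 had one before it. When db/db 1 was left out, 1 pair, Tac1 with Vip, had one before adjustment. The r was above 0 in 19 pairs and below 0 in 17, with a median of 0.08.

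Tac1 and Vip showed the closest relation, with r = 0.94 (exact permutation p = 0.00278, adjusted p = 0.1) and Spearman's rho = 0.90 (exact permutation p = 0.00556, adjusted p = 0.125) over 9 libraries. Both were highest for their group in db/db 1 and low in db/db 3, db/db 4 and wild type 4. Without db/db 1 and db/db 4, the libraries farthest from the median of Tac1, r was 0.88, and without db/db 1 alone it was 0.90 (exact permutation p = 0.0111, unadjusted). Npy and Penk had r = 0.75 (exact permutation p = 0.00694, adjusted p = 0.125) and rho = 0.87 (exact permutation p = 0.00694), with r = 0.80 without db/db 1 and db/db 3, and 0.73 (exact permutation p = 0.05, unadjusted) without db/db 1 alone. Tac1 and its receptor gene Tacr1 ran opposite to each other, with r = -0.82 (exact permutation p = 0.0219, adjusted p = 0.263) and rho = -0.65 (exact permutation p = 0.0799), and r = -0.62 without db/db 1 and db/db 4. Without db/db 1 alone it was -0.69 (exact permutation p = 0.106, unadjusted). Tacr1 and Vip had r = -0.77 (exact permutation p = 0.0326, adjusted p = 0.294) and rho = -0.80 (exact permutation p = 0.0226), but r = -0.26 without db/db 1 and wild type 4, so that this relation rested on those libraries. Its r without db/db 1 alone was -0.60 (exact permutation p = 0.164, unadjusted). None of these relations passed the adjustment over the 36 pairs.

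**Figure D5:**
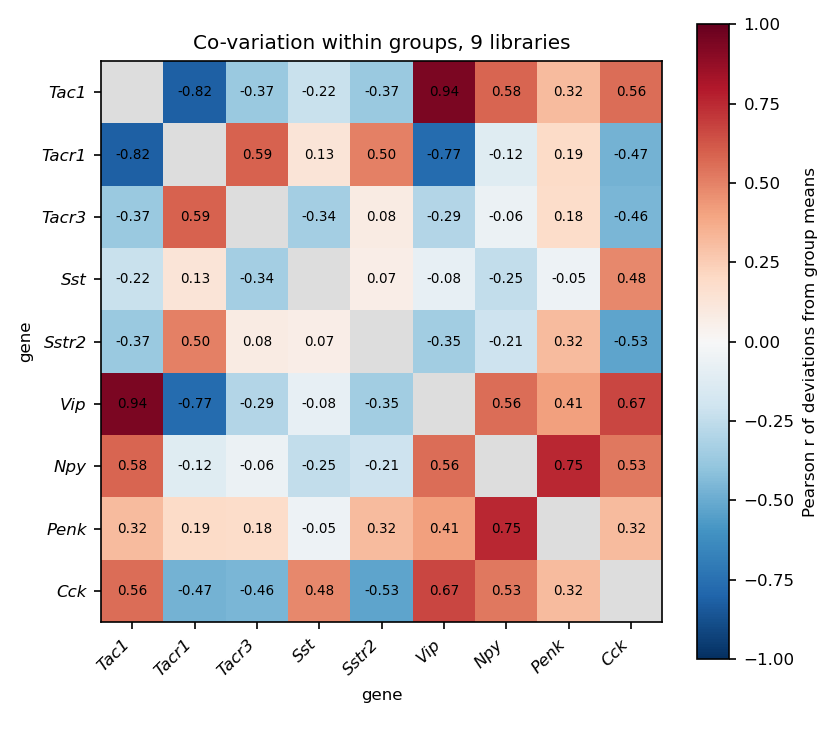
Pearson's r between each pair of the 9 genes (rows and columns) of the deviations of log2(FPKM + 1) from the group means over 9 libraries, coloured from -1 (blue) to 1 (red). Tac1 with Vip, at 0.94, and Tac1 with Tacr1, at -0.82, have the largest values of either sign.

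The tested genes were searched for those most like Tac1, Sst and Penk, leaving out genes with predicted names (Gm, Rik or clone). The deviations of Tac1 were most like those of Lrrc1 (r = 0.974), Mocs3 (r = 0.947) and Mrps18b (r = 0.943), over 9 libraries. Those of Sst were most like Fmnl1, Thoc5 and Aifm3, with r = 0.966 each. The deviation of Sst was 0.98 in wild type 1 and between -0.42 and 0.23 in the other libraries. These r values therefore rest largely on wild type 1, and no r without it is given. Those of Penk were most like Gle1 (r = 0.951), Ggact (r = 0.944) and Gstm2 (r = 0.944). These are the highest values for each gene in a search of the 14588 tested genes less the predicted ones. They rest on 9 points that share library and depth, and they are given as a description.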

How the data were processed

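Per the labels, a Qiagen column kit gave the retinal RNA, of which 1.3 ug went into a SMARTER library. The authors deposited FPKM values for 35397 genes in 9 libraries. Per the submitters' processing notes the genome was mm10. Which aligner, counter, annotation and strand they used is not given in the sources used here. Columns called Control were taken as wild type and those called DR as db/db, each with the title of its number, which is inferred from the names. Symbols and positions came from GENCODE M21, for 34499 identifiers.

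Reads were recovered from FPKM steps times exon length, with 99.0% to 99.1% of low values whole within 0.1 read. Of these 61.4% to 64.7% were even, so a read need not be a separate fragment.

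Values were tested as log2(FPKM + 1), which understates changes of low genes, with limma 3.58.1 in R 4.3.3 (intensity trend), over genes whose mean reached 1 FPKM. Exact permutation tests used Python 3.11.15. Both were tested on simulated data. The pathway genes named were, per list, any that passed and the 3 smallest p-values, the 3 most abundant, and receptor or ligand partners. Pam, Nmb and Scg3 were named after their values were seen. The members and lists were chosen with earlier results of these data known. The alternatives were a pseudocount of 0.1, other filters, scalings, weights, GC correction, a replicate block, leaving out each library and, added after seeing the data, limma-voom.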

Additional observations from a re-analysis of the deposited data

Results flagged for a closer look

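In 50 groups of values searched (members and named pathway genes in each genotype), 7 held a library far from the rest by Dixon's ratio, where chance gives about 1 in 20. Of these, 4 were in db/db 1. Cartpt was highest there, at 82.9 FPKM with the next db/db library at 41.7 FPKM, and Ramp3 was highest there, at 21.8 FPKM with the next at 12.5 FPKM. Agrp was lowest in db/db 1, at 3.21 FPKM with the next at 5.07 FPKM, as was Cadps, at 12.2 FPKM with the next at 18.0 FPKM. The other 3 were in wild type 1, which was the highest wild-type library for Sst, at 13.1 FPKM with the next at 5.97 FPKM. It was also the highest for Cck, at 9.03 FPKM with the next at 5.63 FPKM, and for the convertase gene Pcsk2, at 5.96 FPKM with the next at 5.16 FPKM. The search left out Pam, Nmb, Scg3 and the receptors below the filter, so its counts do not cover every gene named here. Among those receptors wild type 1 also stood apart for Npy2r, at 0.667 FPKM with the next wild-type library at 0.110 FPKM.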

How the results depend on the processing

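Under 20 other settings, 174 of 176 log2 differences of the members moved by less than 1 SD of libraries within groups. The others were Vip, at -0.25 after GC correction, and Tacr3, at -0.32 after GC correction without db/db 1. Leaving out 1 library cannot move a difference by that much, so those settings could not have added to the moved values. The sign of Tacr1, Sst, Npy and Cck turned under some settings. The filter at a mean of 5 FPKM gave no value for Tac1, Tacr1, Sstr2 and Vip. Over all genes, against 34 higher and 39 lower in db/db, the counts were 7 and 2 with no filter, 17 and 13 with a filter at 5 FPKM, 550 and 656 with array weights, 5 and 1 after GC correction, and 378 and 343 after GC correction without db/db 1. Limma-voom called 46 higher and 64 lower. Leaving out 1 library at a time gave 3 to 688 higher and 1 to 852 lower, the highest without db/db 1. In the lists, against 0 throughout, array weights called 2 neuropeptide genes lower, 1 receptor gene higher, and 1 processing gene higher and 1 lower. GC correction without db/db 1 called 3 neuropeptide genes lower, 1 receptor gene higher and 1 processing gene lower. Leaving out 1 library at a time gave 0 to 3 neuropeptide genes lower and 0 to 1 for receptor genes higher and for processing genes higher or lower. No pair of members passed adjustment under the settings run. With the replicate number as a block the counts over all genes were 2 higher and 0 lower, and 0 in each list. Same-numbered libraries did not deviate together (r = 0.043, 0.046, -0.18 and 0.134 for numbers 1, 3, 4 and 5), and 2 of 9 libraries correlated best with their own number. The values thus showed no pairs, but so few correlations cannot exclude them, and the labels do not say. The members rest on few reads, from 143 for Sst in its lowest library to 6541 for Penk in its highest. Intervals over so few libraries stay wide, and a difference such as 0.08 for Sstr2 is within its error.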
